A study of Mus musculus with 2 samples.

Results

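Urothelial organoids under proliferative conditions held a set of cells rich in transcripts of the hypoxia response. The 682 hypoxia-high cells described here were chosen by a score, as the top 10% of the 6818 kept cells of the proliferative library, and the whole series held 11714 kept cells. A cell was kept if more than 800 genes were detected in it and mitochondrially encoded genes gave no more than 12% of its UMIs (unique molecular identifiers, which count each captured RNA molecule once). The score was the mean over 7 genes (Adm, Egln3, Ndufa4l2, Ndrg1, Slc2a1, Vegfa and Bnip3) of the natural logarithm of 1 plus the UMIs per 10000 UMIs of the cell. Because the same UMIs selected the cells, members against the other 6136 P cells is a description throughout, with no test. Intervals are exact at 95% and cover counting error only.

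Organoids came from the bladder urothelium of wild-type (WT) C57BL/6 mice aged 8 to 10 weeks, and were dissociated for 10x Genomics 3′ single-cell RNA sequencing. One library held proliferative organoids (P, NMU-O-P), grown in complete medium, and 1 library differentiated organoids (D, NMU-O-D). Per the study's methods, D organoids were grown first in complete medium and then without WNT3A, RSPO1, EGF, Noggin and the TGF-β receptor inhibitor LY2157299. With 1 library per condition there was no replicate spread. How many mice or cultures each library pooled is not given in the sources used here.

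In cells with enough oxygen, the EGLN prolyl hydroxylases mark HIF1A for destruction through VHL. When oxygen is short, HIF1A persists, pairs with ARNT, binds DNA at ACGTG or GCGTG cores and switches on genes for glucose uptake, glycolysis, blood vessel growth and removal of mitochondria. In the urothelium, basal cells with Krt5 and Krt14 lie beneath intermediate cells and luminal umbrella cells with uroplakins, and in culture or injury the tissue can take on squamous, cornifying features.

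Summed over kept cells, P held 26681469 UMIs and D 20305621. Members and the other P cells had close depths, with medians of 3373 and 3409.5 UMIs and 1128.5 and 1157 genes per cell. Members carried fewer mitochondrial UMIs, with a median share of 3.19% against 6.01%, and a similar share of ribosomal protein UMIs (36.6% and 37.4% of summed UMIs). The kept cells of P and D shared 6 barcode sequences, 1 of them in a member. Markers of other cell types were scarce among members. They held 2 UMIs of 8 fibroblast genes, 3 of 8 leukocyte genes, 21 of 6 endothelial genes and 0 of 5 erythroid genes, and Col1a1, Col3a1, Cdh5, Kdr, Cd3e and Hbb-bs were at 0 in all kept P cells. Egfl7 gave 16 of the 21 endothelial UMIs (log2 ratio to the other P cells 1.24, 0.35 to 2.05), and its part in the results was not tested.

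The score was a continuum. Its median was 0.31 over all P cells, 23.3% of them scored 0, and members began at 1.0283 while the next cell outside scored 1.0282. Of the 682 members, 5 had UMIs of 3 score genes, 202 of 4, 291 of 5, 152 of 6 and 32 of all 7. Among the other P cells, 32 had UMIs of 6 score genes and 3 of all 7.

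The score genes set the scale. Ndrg1 (ENSMUSG00000005125, chromosome 15, 66929318 to 66969640, GRCm38), a stress-induced cytoplasmic protein, stood at 530.8 CPM (counts per 1000000 UMIs) in members and 64.2 in the other P cells. Adm (ENSMUSG00000030790, chromosome 7, 110627661 to 110629820), the vasodilator peptide adrenomedullin, stood at 218.9 and 31.5 CPM. Ndufa4l2 (chromosome 10, 127514967 to 127517154), a HIF-induced relative of the respiratory chain subunit Ndufa4, stood at 382 and 59.7 CPM, and Slc2a1 (chromosome 4, 119108711 to 119137983), the glucose transporter GLUT1, at 316 and 61.7. The remaining score genes were Bnip3 (chromosome 7, 138890836 to 138909519), a mitophagy receptor, with 465 and 114 CPM, Egln3 (chromosome 12, 54178981 to 54203860), an oxygen-sensing prolyl hydroxylase, with 793 and 204, and Vegfa (chromosome 17, 46016993 to 46032369), the endothelial growth factor, with 262 and 68.8.

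Part of these differences follows from selection on the same UMIs. When each cell's UMIs were split at random into 2 sets and members were chosen on one set, the other set gave log2 ratios from 1.39 for Vegfa to 2.53 for Ndrg1, compared with 1.93 to 3.05 on the same UMIs, and 469 of the 682 members were chosen again. With each score gene left out in turn, 547 to 589 members were kept, and the gene left out was still higher in the new members by log2 ratios of 1.28 (Vegfa) to 2.49 (Ndrg1).

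The promoters of several of these genes carry the core letters to which HIF binds. They are shown because the members were defined by genes of this response. Each line is 60 bases upstream of a start site annotated by RefSeq (GRCm38.p6), 5′ to 3′ on the gene's strand, with ACGTG or its reverse complement CACGT in capitals. RefSeq start sites can differ from the GENCODE gene positions given elsewhere, and the windows of Slc2a1, Ero1l, P4ha2 and Egln1 lie wholly or in part inside the GENCODE gene.
Slc2a1, chr4:119108681-119108740, plus strand: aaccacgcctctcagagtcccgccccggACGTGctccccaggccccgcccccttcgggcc
Bnip3, chr7:138909582-138909641, minus strand: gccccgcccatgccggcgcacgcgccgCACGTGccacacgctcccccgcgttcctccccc
Egln3, chr12:54204065-54204124, minus strand: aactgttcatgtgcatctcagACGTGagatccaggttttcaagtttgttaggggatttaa
Ero1l, chr14:45318604-45318663, minus strand: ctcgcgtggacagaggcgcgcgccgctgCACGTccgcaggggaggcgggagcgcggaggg
P4ha2, chr11:54100818-54100877, plus strand: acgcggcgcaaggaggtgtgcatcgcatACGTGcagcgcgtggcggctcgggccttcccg
Egln1, chr8:124949291-124949350, minus strand: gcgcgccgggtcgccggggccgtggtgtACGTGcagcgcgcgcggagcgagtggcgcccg
The match began 36 bases before the RefSeq start site in Slc2a1, 63 in Ero1l (named Ero1a in RefSeq), 68 in Egln1, 78 in P4ha2, 108 in Bnip3, where both strands match in the palindrome CACGTG, and 229 in Egln3. In the 250 bases upstream, ACGTG on either strand was found for 4 of the 5 score genes with an entry, for 17 of 25 other hypoxia targets and for 11 of 24 glycolysis genes, against 18.5% of 27025 genes in the table. It was found for 1 of 7 basal and 2 of 20 squamous genes. GCGTG on either strand was found for 4 of 5, 18 of 25 and 12 of 24 of the same 3 lists, against 30.9% of all genes. The 3 lists were written as known targets, the base composition of the windows was not matched, and a match is not evidence of binding.

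To describe the differentiation state of the members, P cells were clustered on their own. Members lay mainly in a basal-like cluster and in one rich in intermediate and squamous genes, and few lay in the others. Cluster 0 was basal-like, with 9 of 12 basal genes higher than in all other P cells and leading genes Nbl1, Dlk2, Dll1, Ctnnal1 and Gm4610, and held 384 members. Cluster 1, led by Sprr2f, Psca, Calml3, Krt6b and Nccrp1, with 11 of 11 intermediate and 17 of 20 squamous genes higher, held 261. Cluster 2, led by Fmo2, Slc7a11 and Agr2 and without a name, held 14. Cluster 3 was mitotic, with 14 of 14 mitosis genes and 11 of 12 basal genes higher, and held 23.

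Cluster 0 took 56.3% of members (52.5 to 60.1%) and 36.1% of the other P cells (34.9 to 37.3%). Cluster 1 took 38.3% (34.6 to 42.04%) and 37.7% (36.5 to 38.9%), which could not be told apart at this count. Cluster 2 took 2.05% (1.13 to 3.42%) and 21.1% (20.1 to 22.1%), intervals that lie far apart. Cluster 3 took 3.37% (2.15 to 5.02%) and 5.15% (4.61 to 5.73%). Members thus made up 14.8% of cluster 0, 10.1% of cluster 1, 1.07% of cluster 2 and 6.78% of cluster 3. The basal side, clusters 0 and 3, held 59.7% of members.

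**Figure D1:**
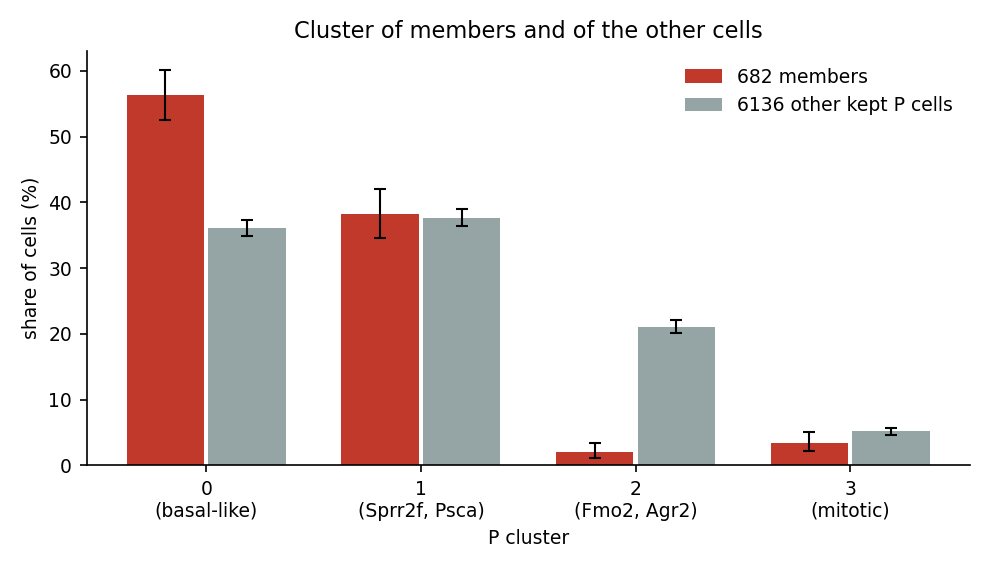
Share of the 682 members (red) and of the 6136 other kept P cells (grey) in each P cluster, in percent, with exact 95% binomial intervals for counting error. Members exceed the other cells in cluster 0 (56.3% against 36.1%) and fall short of them in cluster 2 (2.05% against 21.1%), while the intervals overlap in cluster 1.

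Because the score genes were among the features that shaped the clusters, clustering was repeated without the score genes and the listed hypoxia, oxygen sensing and glycolysis genes. This left 1962 of the 2000 variable features. Genes outside these lists that were higher in members were not left out. The corresponding clusters then held 55.9%, 38.3%, 2.49% and 3.37% of members. A finer resolution split both arms. The basal-like cells divided into a group of 1799 cells with 28 members and a group of 795 cells with 356 members, whose leading genes (Nbl1, Adm, Plod2, Itpk1, Ndrg1) were in part the score genes themselves. The cells of cluster 1 divided into 1266 cells led by Sprr2f, AA467197, Psca, Sprr1a and Upk1a, with 249 members, and 1289 cells led by Cyp2f2, S100g, Ccr2, Fam25c and Tmprss11d, with 10 members. The share on the basal side moved with the definition of members, from 52.1% for the top 20% by score to 67.2% for the top 5%.

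Outside the score, 3 of the 15 genes with the highest ratio in members, Ero1l, Plod2 and Hmox1, belonged to the list of other hypoxia targets, and Pfkfb3 and Gbe1 to the glycolysis list. Of 7758 genes with at least 200 UMIs in P, 95 (1.22%) were at least 2-fold higher in members and 155 (2%) at least 2-fold lower, with a median log2 ratio over all of them of −0.06. These counts describe selected cells and carry no test.

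The highest ratio belonged to Mgarp (ENSMUSG00000037161, chromosome 3, 51388412 to 51396738), a mitochondrial transport protein, with 43.4 CPM in members and 7.32 in the other P cells, a log2 ratio of 2.57 (2.22 to 2.92). Ero1l (ENSMUSG00000021831, chromosome 14, 45283087 to 45318771), the oxidase that drives disulfide formation in the endoplasmic reticulum, was far more abundant, with 1112 and 231 CPM and a log2 ratio of 2.27 (2.20 to 2.33). Itpk1, an inositol phosphate kinase (2.34), Plod2, a collagen lysyl hydroxylase (2.20), Hmox1, the heme-degrading oxygenase (1.71), Gbe1, the glycogen branching enzyme (1.67), and Pfkfb3, which makes the activator of phosphofructokinase (1.75), belonged to the same 15 genes. So did secreted factors and matrix genes, namely Pthlh, parathyroid hormone-related protein (2.21), Nbl1, a BMP antagonist (2.20), Inhba, the activin A subunit (1.69), Vwa1, a matrix protein (1.68), and Hyal1, a hyaluronidase (1.64). Rnf186, a ubiquitin ligase (1.83), Prelid2 (1.71) and Gm15283 (1.76) completed them. Gm15283 is annotated as an antisense gene whose body shares 46156 bases with Hif1a on the other strand. Hif1a itself had a log2 ratio of 0.22 (0.06 to 0.37). Its intervals included 0 within cluster 0 (0.04, −0.16 to 0.24) and within cluster 1 (0.03, −0.28 to 0.32).

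Several of the lowest ratios belonged to leading genes of clusters that held few members. Cxcl15, a chemokine, had 0 UMIs in members and 308 in the other P cells, which places it at least 11.2-fold lower in members if a floor of 3 UMIs stands for their 0. The exact interval of its log2 ratio reaches up to −3.18, a weaker bound. Cyp2f2, a cytochrome P450, had 4 and 648 UMIs, with a log2 ratio of −4.14 (−6.02 to −2.78). S100g, a calcium-binding protein, had 7 and 725 UMIs (−3.50), and Agr2, a protein disulfide isomerase of mucosal epithelia, 6 and 518 (−3.24). Fmo2, a flavin monooxygenase (−2.57), led cluster 2 together with Agr2 and Nr4a1, an early-response nuclear receptor (−2.20). Cyp2f2, S100g, Ccr2, a chemokine receptor (−2.42), Cxcl15 and Krt1, a suprabasal keratin (−2.31), were among the 10 leading genes of the finer group of 1289 cells. The others were Gsdmc2, a gasdermin with close paralogs (−2.71), Cxcl3 (−2.59), Slc14a1, the urea transporter (−2.32), Lysmd2 (−2.29), Cldn8, a claudin (−2.17), Mkks (−2.03) and Slc16a11, of the monocarboxylate transporter family (−1.81). Within cluster 1 all 15 lay below 0, with intervals that excluded 0. The 15 were picked for low ratios over P cells that include those of cluster 1, so this is no separate support. There Cyp2f2 had a log2 ratio of −3.51 (−5.40 to −2.15), S100g of −3.52 (−5.15 to −2.29) and Krt1, with 2 UMIs in members, of −3.47 (−6.52 to −1.60).

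The gene lists were described by genes with at least 50 UMIs. Of 10653 such genes, 41.5% lay above 0, 1.87% were at least 2-fold higher in members and 4.79% at least 2-fold lower. The median log2 ratio over all of them was −0.08. Counts of list genes above 0 stand beside that share of 41.5%. Of the other hypoxia targets, 29 of 35 were measured, 25 were above 0 and 11 were at least 2-fold higher. Their median log2 ratio was 0.76 (median bounds 0.57 to 1.08). After Ero1l, Plod2 and Hmox1 came the prolyl hydroxylases of collagen, P4ha2 (100.9 against 34.5 CPM, log2 1.55) and P4ha1 (110 against 45.8, log2 1.27), the oxygen sensor Egln1 (302 against 107, log2 1.49), the lipid droplet protein Hilpda (43.8 against 15.7, log2 1.48) and Selenbp1 (91.0 against 34.7, log2 1.39). Mif, a cytokine, and Fam162a, a mitochondrial protein, were already abundant in the other P cells and differed less (log2 0.62 and 0.75). Car12, a carbonic anhydrase, was below 0 (−0.36, −0.63 to −0.10), and Tfrc, Fut11 and Cited2 had intervals that included 0. Angptl4, Car9, Lox, Loxl2 and Ppp1r3c were among the genes with too few UMIs.

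Glycolysis genes all lay on the higher side. All 22 measured of 25 were above 0, 6 of them at least 2-fold, with a median log2 ratio of 0.82 (0.73 to 0.92). The steps from glucose to lactate were each represented. Hexokinase Hk2 stood at 290 CPM in members and 160 in the other P cells, Gpi1 at 741 and 419, Aldoa at 2666 and 1401, Gapdh at 1499 and 708, Pgk1 at 2241 and 1252, Pkm at 1158 and 653, and Ldha at 1108 and 646.5. The lactate exporter Slc16a3 (102 and 37.0 CPM, log2 1.47) showed a larger ratio than any of these 7 enzymes. Pdk1, the kinase that closes pyruvate off from the mitochondria, stood at 97.1 and 59.6 CPM (log2 0.70).

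The oxygen sensing genes were close to level, with 6 of 7 measured, a median of 0.03 and 0 genes past 2-fold. Arnt, Vhl, Hif1an and Epas1 had intervals that included 0, and Egln2 was lower (−0.44, −0.87 to −0.04).

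**Figure D2:**
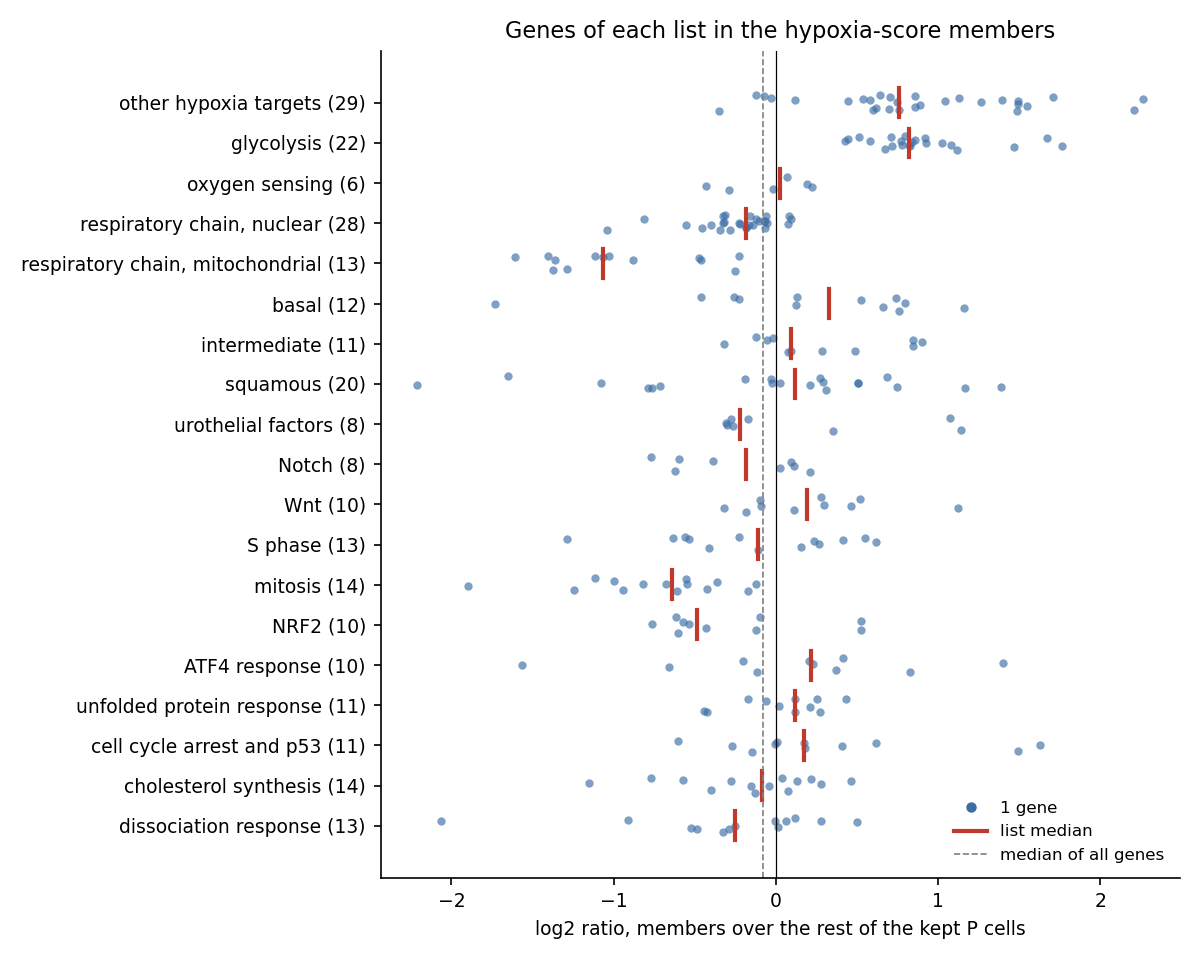
Log2 ratio of summed UMIs per 1000000, members over the other kept P cells, for genes of 19 lists with at least 50 UMIs. Each point is 1 gene (vertical scatter is arbitrary), red bars are list medians, the number of genes is in brackets and the dashed line marks the median of all genes (−0.08). The hypoxia and glycolysis points lie mostly to the right, the mitochondrial respiratory chain and mitosis points to the left, and the basal and squamous lists spread to both sides.

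Differentiation genes differed one by one more than list by list. Basal genes had a median of 0.33 (0.07 to 0.53), with 8 of 12 above 0, and of 0.14 once the other cells were given the members' mix of clusters. Krt17 (97.9 against 43.8 CPM, log2 1.16), the hemidesmosome genes Itgb4 (0.79) and Col17a1 (0.76), the laminin receptor Itga3 (0.65) and Krt14 (2798 against 1672 CPM, log2 0.74) were higher. Krt15 (ENSMUSG00000054146, chromosome 11, 100131758 to 100135928), a basal keratin, was the exception, with 654.5 CPM in members against 2174 (log2 −1.73, −1.80 to −1.66). Krt5 (−0.46), Cd44 (−0.26) and Trp63, the basal master regulator (−0.23), were also lower. Within cluster 0 the ratio of Trp63 was −0.69 (−0.91 to −0.48), and within cluster 1 −0.17 (−0.50 to 0.15). Summed over the 12 genes, the basal list was lower in members, at 7289 CPM against 8400, although its median was above 0.

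Intermediate genes had a median of 0.10 (0.04 to 0.23), with 7 of 11 above 0 and 0 past 2-fold in either direction. The simple keratin Krt7 (chromosome 15, 101411043 to 101430313) stood at 2302 CPM in members and 1233 in the other P cells (log2 0.90), the surface protein Psca at 3125 and 1739 (0.85) and Hopx at 274 and 153 (0.84). Klf5 (−0.32) and Foxq1 (−0.13) lay on the other side of 0. The list median was 0.015 when mitochondrial and ribosomal protein UMIs were left out of the totals, and −0.028 when Bnip3 was left out of the score.

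Squamous genes split. Their median was 0.12, with bounds from −0.45 to 0.60 and 11 of 20 above 0. Sprr2f (217 against 83.2 CPM, log2 1.39) and Sprr1a (1381 against 615, log2 1.17), cross-linked proteins of the cornified envelope with close paralogs, were at least 2-fold higher. The cornulin gene Crnn (0.75), Nccrp1 (0.68), Krt6a (0.51) and Flg, the filaggrin gene (0.50), were higher as well. Krt1 (−2.31), Krt4 (117 against 367 CPM, −1.65) and Krt13 (348 against 591, −0.76), keratins of suprabasal layers, were lower, and Ivl was level (−0.03, −0.20 to 0.13). The sign of the list median changed under 7 alternatives and is not used further.

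Uroplakins were rare in P. Members held 70 UMIs of the 6 luminal genes, 26.7 CPM against 20.2 in the other P cells, of which 50 were Upk1a (log2 0.73, 0.26 to 1.16), and 0 of Upk2, Upk3a and Krt20. Of the 8 urothelial transcription factors, Elf3 (chromosome 1, 135253575 to 135258568), an epithelial differentiation factor, stood at 410 against 195 CPM (log2 1.07), and Pparg (chromosome 6, 115360951 to 115490399), which drives urothelial differentiation, at 24.0 against 10.9 (1.13, 0.71 to 1.54). Pparg was found mainly in the members of cluster 1, with 54 UMIs (45.4 CPM), against 9 UMIs (6.97 CPM) in those of cluster 0. Foxa1, Tbx3, Gata3, Rxra and Klf4 lay between −0.31 and −0.17, and Foxa1 and Rxra had intervals that included 0.

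The order of the score showed how these levels ran below the threshold. Cells outside the members were divided into the 1587 cells that scored 0 and 4 groups of 1137 or 1138, and members into a lower and an upper group of 341. Krt15 was lower at each step over all 7 groups, from 3182 CPM at score 0 through 2086 in the second scoring group to 559 in the upper members. Elf3 ran the other way, from 108 to 415 CPM, and Gapdh from 491 to 1583. Krt14 stayed between 1420 and 1851 CPM in the 5 groups outside the members and reached 2340 and 3278 within them. Sprr1a was highest in the lower members (1578 CPM) and lower in the upper members (1175). Among the upper members 65.1% lay in cluster 0 and 32.3% in cluster 1, compared with 47.5% and 44.3% of the lower members and 39.0% and 51.2% of the cells just below them.

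**Figure D3:**
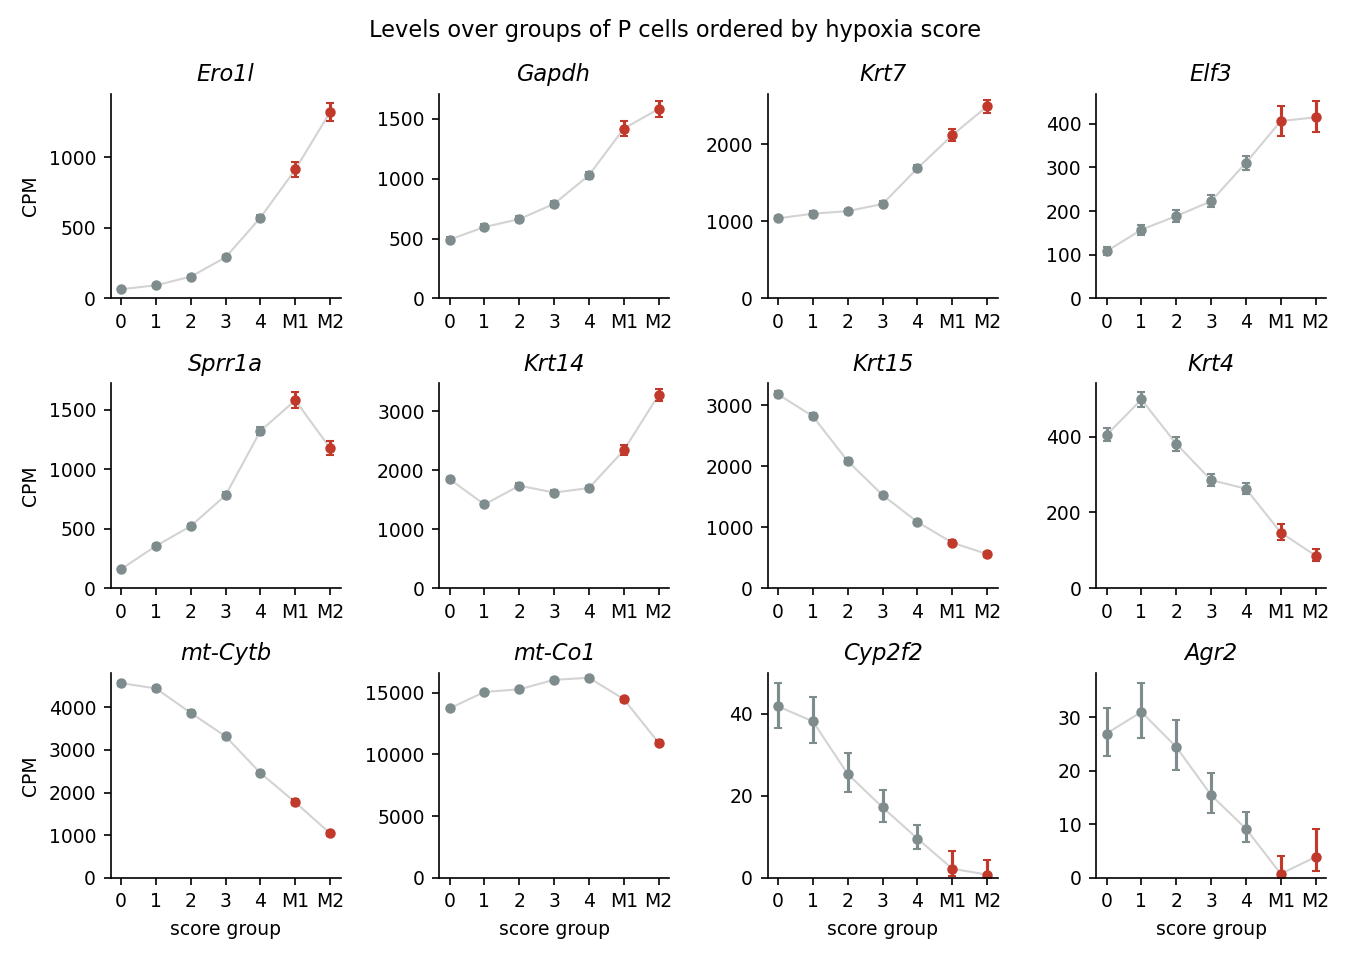
Levels of 12 genes in CPM (each axis from 0) over groups of kept P cells ordered by score. Group 0 holds the 1587 cells with score 0, groups 1 to 4 (grey) the other cells outside the members, and M1 and M2 (red) the lower and upper 341 members, with exact 95% Poisson intervals. Krt15 and mt-Cytb decline over every step, Ero1l, Gapdh, Krt7 and Elf3 climb, Krt14 varies without order up to group 4 and is higher in M1 and M2, and Sprr1a peaks in M1.

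To limit the influence of the mix of clusters, members were compared with the other cells of the same cluster. The mix of finer groups remained in this comparison. At the finer resolution, 356 and 28 members lay in the basal-like groups of 795 and 1799 cells. The groups of 1266 and 1289 cells from cluster 1 held 249 and 10. In cluster 0 (384 members, 2213 others) the median log2 ratio was 0.91 for the other hypoxia targets and 0.89 for glycolysis, and in cluster 1 (261 members, 2313 others) 0.71 and 0.66. The median of all genes was −0.14 and −0.02. Basal genes were near level within clusters, with a median of 0.08 (7 of 12 above 0) in cluster 0 and 0.02 (6 of 12) in cluster 1, while intermediate genes had medians of 0.23 (9 of 11) and 0.29 (10 of 11). Members were deeper than the others in cluster 0 (medians 3130 and 2784 UMIs) and shallower in cluster 1 (3797 and 4290), and depth was not matched within clusters. Over all of P, the other cells were reweighted to the members' depth. The medians were then 0.78 for the other hypoxia targets, 0.82 for glycolysis, 0.31 for basal and 0.11 for intermediate genes.

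Krt15 was lower in members of both clusters, 704.5 against 2210 CPM in cluster 0 (log2 −1.65) and 553 against 2107 in cluster 1 (−1.93). Krt7 was higher in both, by log2 ratios of 0.80 and 0.83, and so were Elf3 (1.57 and 0.94), Sprr1a (1.58 and 1.25) and Pmaip1, the p53 target NOXA (2.42 and 1.45). The lists of Elf3, Sprr1a and Pmaip1 did not follow them in cluster 0. There 1 of 6 urothelial factors, 3 of 10 squamous and 5 of 11 arrest and p53 genes lay above 0 (medians −0.37, −0.41 and −0.02). In cluster 1, 5 of 8, 11 of 19 and 7 of 10 did (medians 0.26, 0.13 and 0.24). Krt19 differed mainly in cluster 0, with 1304 against 655 CPM (log2 0.99, 0.91 to 1.07), compared with 0.13 (0.09 to 0.17) in cluster 1. Psca differed in cluster 1 (0.96, 0.92 to 0.99), where it is a leading gene, while the interval in cluster 0 included 0 (0.13, −0.25 to 0.50). Hilpda differed in cluster 1 (74.8 against 17.3 CPM, log2 2.11, 1.74 to 2.48), and its interval in cluster 0 included 0 (20.1 against 16.1 CPM, 0.32, −0.36 to 0.95). All 8 measured Notch pathway genes lay below 0 in cluster 0, as did 5283 of 8315 genes there, with a median of −0.35, and the intervals of Jag1, Notch2, Notch3 and Nrarp included 0. In cluster 1, 5 of 7 lay below 0, with a median of −0.24, and Notch2 and Notch3 lay above.

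**Figure D4:**
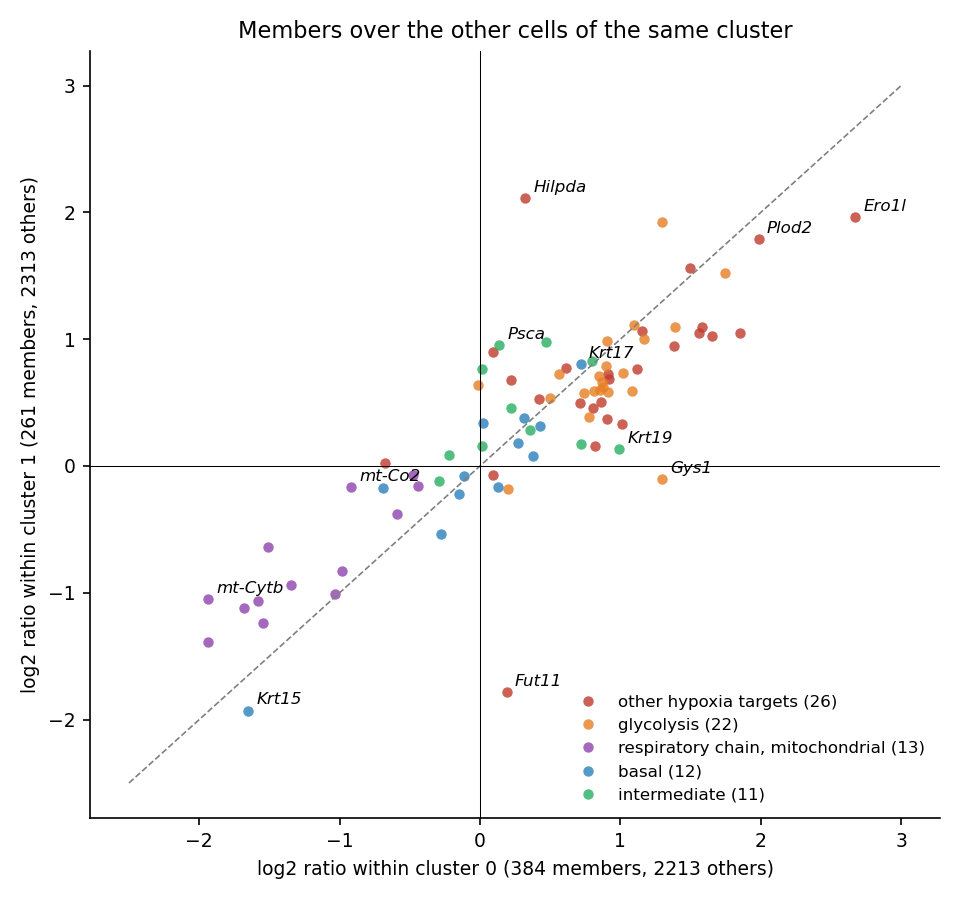
Log2 ratio of members over the other cells of cluster 0 (horizontal) and of cluster 1 (vertical) for genes of 5 lists with at least 50 UMIs in both clusters. Each point is 1 gene and the dashed line marks equal ratios. Hypoxia and glycolysis genes lie mostly in the upper right and mitochondrial genes in the lower left, Hilpda lies near 0 in cluster 0 but at 2.11 in cluster 1, and Krt15 is low in both.

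Members of the 2 arms were close in the medians of the hypoxia and glycolysis lists and far apart in those of the basal and intermediate lists. Members of cluster 0 against members of cluster 1 had a median log2 ratio of 0.11 for the other hypoxia targets and 0.05 for glycolysis, with 11 of 20 glycolysis genes higher in cluster 0. Single genes differed more. Adm (294 against 144 CPM), Slc2a1 (434 against 203) and Plod2 (49.6 against 13.4) were higher in the basal-like members, and Ankrd37 (76.6 against 219), Hilpda and Vegfa (214 against 313) in the members of cluster 1. The medians were 1.93 for basal and −1.88 for intermediate genes, which helped to define the clusters. Krt14 stood at 4915 CPM in the basal-like members and 559 in the others, and Psca at 58.1 and 6821. Krt5 did not separate them (2690 and 2591 CPM, log2 0.05, −0.02 to 0.12).

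Transcripts of the mitochondrial genome were lower in members, and unevenly so. All 13 protein-coding genes lay below 0, 8 of them at least 2-fold, with a median of −1.07 (−1.17 to −0.98). The 12 genes of the heavy strand are read as 1 long transcript that is later cut up. The first 4 in transcript order, mt-Nd1 to mt-Co2, had log2 ratios between −0.88 and −0.25, and the next 8, mt-Atp8 to mt-Cytb, between −1.61 and −1.03. No basis apart from these ratios is given for the cut after mt-Co2, so the gap between the groups carries no test. Inside the groups the ratios did not follow transcript order, with mt-Nd2 (−0.88) ahead of mt-Co1 and mt-Nd3 ahead of mt-Nd5 (−1.07). mt-Co1 stood at 12748 CPM in members and 15208 in the other P cells (−0.25), whereas mt-Cytb, the last gene, stood at 1414 and 3752 (−1.41) and mt-Nd3 at 424 and 1294 (−1.61). mt-Nd6, the only one encoded on the light strand, was also lower (110 and 129 CPM, −0.23, −0.41 to −0.06), with a ratio close to that of mt-Co1.

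Within clusters, the medians of the groups of 4 and 8 genes were −0.75 and −1.56 in cluster 0 and −0.27 and −1.06 in cluster 1. In cluster 0 the groups nearly met, with mt-Nd2 of the first at −0.98 (−1.06 to −0.91) and mt-Nd5 of the second at −1.03 (−1.20 to −0.88). They overlapped in cluster 1, where mt-Nd2 was at −0.82 and mt-Co3 of the second group at −0.64. Over all P cells the medians were −0.46 and −1.31 with no limit on the mitochondrial share, and in D, under the same rule, −0.11 and −0.08. The cell filter used these same transcripts, and the medians without it are those just given.

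**Figure D5:**
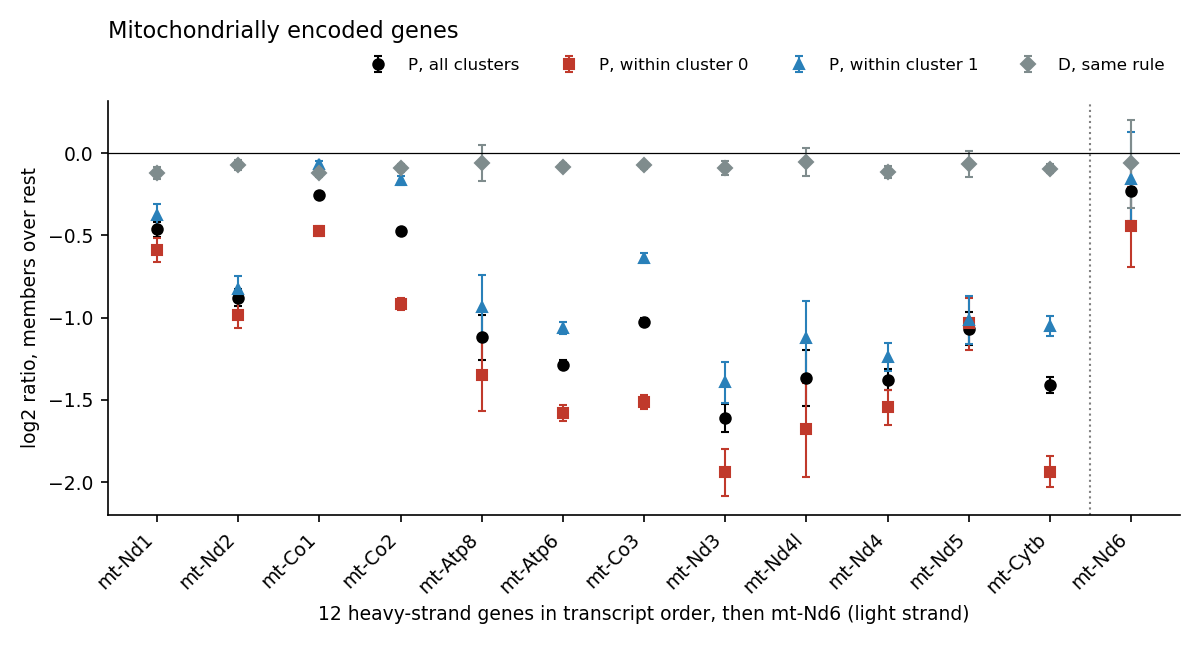
Log2 ratio of members over the other cells for the 12 mitochondrial genes of the heavy strand in transcript order and for mt-Nd6, with exact 95% intervals. Black circles are all P cells, red squares cluster 0, blue triangles cluster 1 and grey diamonds the same rule in D. From mt-Atp8 on, the P values are between −1.61 and −1.03 for all cells, against −0.88 to −0.25 for the first 4 genes, while D stays between −0.12 and −0.05.

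Nuclear genes of the respiratory chain were lower to a smaller degree. Of 28 genes, 25 lay below 0, with a median of −0.18 (−0.34 to −0.04) and 1 past 2-fold. That gene was Ndufa4, a subunit of the terminal oxidase, at 226 CPM in members and 466 in the other P cells (log2 −1.04, −1.16 to −0.92), while its relative Ndufa4l2, a score gene, was higher. Within cluster 0 the ratio of Ndufa4 was −1.77 and within cluster 1 −0.54. Ndufa1, of complex I (−0.82), and Sdhb, of complex II (−0.56), came next, and Uqcrc2, Uqcrfs1 and Cox7a2 lay between 0.07 and 0.09.

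Proliferation genes did not mark the members. All 14 mitosis genes lay below 0, with a median of −0.64 (−1.12 to −0.22), 3 of them at least 2-fold. Top2a stood at 36.6 CPM in members and 49.3 in the other P cells, and Mki67 at 17.5 and 25.9. The median was −0.18 once the other cells were given the members' mix of clusters. S phase genes spread around 0, with a median of −0.11 and 6 of 13 above 0. Among inhibitors of the cell cycle and p53 targets, the median was 0.17 (−0.14 to 0.39), with 7 of 11 above 0 and 4 below, the lowest at −0.61. Pmaip1 (92.9 against 30.1 CPM, log2 1.63), Cdkn1c (1.47) and Cdkn1a (174 against 113, 0.62) were on the higher side. Cdkn1c had few UMIs, 16 in the members of cluster 0 and 6 in those of cluster 1.

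Stress responses were mixed. The NRF2 targets had a median of −0.48 (−0.82 to −0.18), with Gsr (−0.77), Nqo1 (−0.64) and Gclc (−0.61) lower and Txnrd1 and Me1 (both 0.52) higher. The ATF4 targets had a median of 0.22, and went from Slc7a11, the cystine transporter that leads cluster 2 (−1.59), to Ddit3, the stress factor CHOP (65.5 against 24.8 CPM, log2 1.40). Chaperones of the endoplasmic reticulum had a median of 0.12 and cholesterol synthesis genes of −0.09, both with bounds on either side of 0. Wnt genes had a median of 0.19, with 6 of 10 above 0 and 4 below. Wnt4 (277 against 193 CPM, 0.52) and Axin2 (1.09, from 17 UMIs in members) were higher. The Wnt median was −0.10 within cluster 0 (4 of 10 above 0) and 0.12 within cluster 1 (7 of 9). Wnt4 was at 0.12 (−0.03 to 0.26) and 0.56 (0.36 to 0.77) there. Notch genes had a median of −0.18, with 4 of 8 measured above 0, 0 of them with an interval above 0. Nrarp (−0.78), Notch1 (−0.62), Jag1 (−0.60) and Hes1 (561 against 733 CPM, −0.39) were lower. Jag1 is also a leading gene of cluster 2, which held few members, and its intervals within clusters 0 and 1 included 0. Genes induced by dissociation had a median of −0.25 (−0.50 to −0.05), led by Nr4a1 and Egr1 (−0.91), while Dusp1 (0.50) was higher, and their part in the result was not tested.

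The same rule in D chose cells with far lower scores. The score was 0 in 72.2% of kept D cells, the 490 cells of its top 10% began at a score of 0.22, 320 of them had UMIs of a single score gene, and 1 D cell (0.0204%) reached the score at which P members began. D members were also shallower than the other D cells (medians 2517.5 and 3301 UMIs). Of 10502 genes with at least 50 UMIs, 1.28% were at least 2-fold higher and 1.23% at least 2-fold lower in these cells, with a median of 0.05. The other hypoxia targets had a median of 0.26 (−0.32 to 0.73) with 22 of 28 above 0, and glycolysis 0.37 (0.04 to 0.59) with 20 of 21. Of the 15 genes with the highest ratio in P, 12 had enough UMIs in D, 8 of them lay above 0 and 1 passed 2-fold, where 58.5% of all genes in D lay above 0. Of the 15 with the lowest ratio, 14 had enough UMIs, 9 lay below 0 and 0 passed 2-fold. In D members Krt15 had a log2 ratio of −0.09 (−0.12 to −0.07), Psca of −0.32 (−0.38 to −0.26) and Elf3 of −0.28 (−0.49 to −0.07). D and P were separate libraries, and the difference between them was not tested.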

How the data were processed

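Per the labels and the study's methods, the authors dissociated the organoids, made 10x Genomics 3′ v3 libraries, processed reads with bcl2fastq 2.19.0 and Cell Ranger 3.0.2 (submitters' processing notes) and aligned them to GRCm38/mm10. The deposited matrices hold raw UMI counts per gene and barcode, as whole numbers with no normalization. Of 8194 P and 6975 D barcodes, 6818 and 4896 passed the filter.

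UMIs were summed over members and over the other cells of the library and expressed per 1000000 UMIs, a scale relative to all RNA counted. Ratios are members over the other cells, with exact conditional binomial intervals, levels have exact Poisson and shares exact binomial (Clopper-Pearson) intervals, all at 95%. A 0.5 UMI was added for ranking, list medians and 2-fold counts. Bounds beside a list median are the medians of its genes' bounds. Genes named are the 7 score genes, the 15 highest and 15 lowest ratios among genes with at least 200 UMIs, members of the lists, and the 10 leading genes of each P cluster. Gene positions come from the GENCODE annotation for GRCm38. Of repeated symbols, the identifier with most UMIs kept the name.

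P cells were clustered with Seurat 5.3.0 (R 4.3.3; 2000 variable features, 25 components, Louvain resolution 0.2 and, finer, 0.4). Cells thinned to 2100 UMIs served as an alternative. Scrublet (scanpy 1.11.5) called 0 of 6818 P and 0 of 4896 D cells doublets and is taken not to have worked, so doublets were not removed. Members' median doublet score was 0.0635 and that of the other P cells 0.0937. Sums and ratios were tested on simulated data (Python 3.11.15, SciPy 1.17.1). The simulation drew summed counts for each group, without spread between cells or choice of members by score. It therefore covers counting error only. The members and gene lists were chosen with earlier results of these data known.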

Additional observations from a re-analysis of the deposited data

Results flagged for a closer look

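The intermediate genes differed in direction between libraries. Their median log2 ratio of members over the other cells was 0.10 in P (0.04 to 0.23) and −0.21 in D (−0.37 to −0.06), with 7 of 11 genes above 0 in P and 1 of 11 in D. The difference was not tested, members were chosen by the score in each library, and the D members were shallower than the other D cells.

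Barcodes that the filter left out held score gene transcripts. The 1376 left-out P barcodes had 1923 UMIs of the 7 genes, or 965 per 1000000 non-mitochondrial UMIs (923 to 1010), against 889 in the kept P cells. The 2079 left-out D barcodes had 123 (108 to 139), against 96.6 in the kept D cells. These barcodes entered no comparison except the alternatives with another filter.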

How the results depend on the processing

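The medians of the other hypoxia targets (0.26 to 0.88 over 24 alternatives) and of glycolysis (0.37 to 0.88) stayed above 0, and that of the basal genes too (0.12 to 0.55), with D at 0.26 and 0.37 and the top 5% at 0.55 as the values outside their bounds. Intermediate genes moved to 0.036 for the top 5%, 0.24 for the top 20%, 0.26 without Ndufa4l2 in the score and 0.015 without mitochondrial and ribosomal protein UMIs, and turned to −0.028 without Bnip3 and −0.21 in D. Squamous genes turned to −0.015 when members and levels came from separate sets of UMIs, −0.035 with the summed share as the score, −0.018 without Ndrg1, −0.071 without Vegfa, −0.099 without Bnip3, −0.010 with the rest reweighted to the members' clusters and −0.25 in D. Mitosis genes moved to −1.17 for the top 5%, −1.33 with the summed share, −1.25 without Ndufa4l2, −0.18 with the reweighting to clusters and −1.64 in D. Reweighting to depth deciles left every value within its bounds or 1.5-fold.

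The count of genes at least 2-fold higher, 95, went to 54 at a minimum of 500 UMIs, 9 in D and 3657 at 1 UMI, where the added 0.5 UMI weighs more on the members' smaller total. The count of lower genes, 155, went to 248 in thinned cells, 313 for the top 5%, 71 for the top 20%, 1143 and 63 at minimums of 1 and 500 UMIs, and 12 in D. The basal-side share, 59.7%, went to 67.2% and 52.1% for the top 5% and 20%, 55.4% without Slc2a1, 63.6% without Bnip3 and 54.0% under the stricter cell filter. The cause of the other shifts was not tested. The alternative without called doublets could not be run, and leaving out the 6% of cells with the highest doublet score, and dropping the mitochondrial limit, both added after the data were seen, left all these values within their bounds, and counts within 1.5-fold. No paired analysis was possible because each condition has 1 library. Counts of few UMIs limit single genes, and no interval covers the spread between cultures.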
